A study of Mus musculus with 6 samples.

Results

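The genes described here are 9 that mark B cells or carry signals from their antigen receptor: MS4A1, CD79A, CD79B, BLK, PAX5, CD22, CR2, FCMR and BANK1. They were taken by symbol from a count table of 46937 gene symbols, and all 9 were present in it. RNA had been sequenced from 6 biopsies of lung squamous cell carcinoma that arose in genetically engineered mice. The 3 control biopsies, called PSC, came from mice with constitutively active PI3K (Pik3ca H1047R), overexpression of SOX2 and deletion of Cdkn2a/b, with NSD3 labelled as wild type. The other 3, called PSCN, carried the same alterations and in addition expressed the T1242A mutant of NSD3, a histone H3 lysine methyltransferase. The promoter or Cre driver of these alleles, the age of the mice and whether each biopsy came from its own mouse are not stated in the labels, and the p-values therefore reflect differences among these biopsies, which may be partly technical. The question addressed is how the transcripts of B cells in these tumours differ when mutant NSD3 is present.

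A B cell senses antigen through membrane immunoglobulin, which has almost no cytoplasmic part of its own and signals through a heterodimer of CD79A and CD79B. Kinases of the SRC family, among them BLK and LYN, phosphorylate the tails of that heterodimer, SYK binds there, and adaptors pass the signal on to phospholipase C. CR2 lowers the threshold of this response, and CD22 raises it. B cells are sparse in the healthy lung but can gather in lymphoid aggregates beside airways and around tumours.

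All 9 genes stood lower in PSCN than in PSC, by 2.44-fold (CD22) to 19.1-fold (CR2), and for each of them all 3 PSCN libraries lay below all 3 PSC libraries. Of the 21201 genes tested, 13.4% were lower in PSCN without overlap between the groups. None of the 9 passed an adjusted p of 0.05 in the quasi-likelihood test of edgeR, which called 0 genes lower (0% of those tested) and 1 higher (0.00472%). At an unadjusted p under 0.05 edgeR had 9 of the 9 members and 2579 genes in all (12.2%) as lower. The Wald test of DESeq2 called 8 of the 9 lower, against 8.89% of all genes, and limma-voom with quality weights called 2, against 5.84%. On data simulated from these libraries DESeq2 made more false calls than the other tools, 123 of 304 against 5 of 127 for edgeR. It also recovered more of the 100 simulated 4-fold changes, 84 against 40 for edgeR and 37 for limma-voom. The 127 calls of edgeR there stand against 1 in these data, so the simulation did not match them in this respect. In a bulk biopsy, fewer B cells and less RNA per B cell cannot be told apart.

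Some facts of the series bear on these values. Total counts ran from 69563622 to 72807077 per library. NSD3 itself measured 79.7, 96.7 and 101.7 CPM (counts scaled to library size) across PSC libraries 1 to 3 and 820.7, 917.8 and 1931.8 CPM across PSCN libraries 1 to 3, so its level follows the labels. PSC library 3 stood apart: its log2 CPM correlated more with the PSCN libraries (mean r = 0.941 across genes, which are not independent replicates) than with the other PSC libraries (0.908). By XIST and the Y-linked DDX3Y, PSC libraries 2 and 3 were from females and the other 4 from males. The 7 squamous epithelium genes tested, keratins and SOX2 among them, summed to 1259, 2812 and 6811 CPM in PSC libraries 1 to 3 and to between 8547 and 20748 CPM in PSCN, so PSC library 1 had the lowest level of the labelled tumour type.

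**Figure D1:**
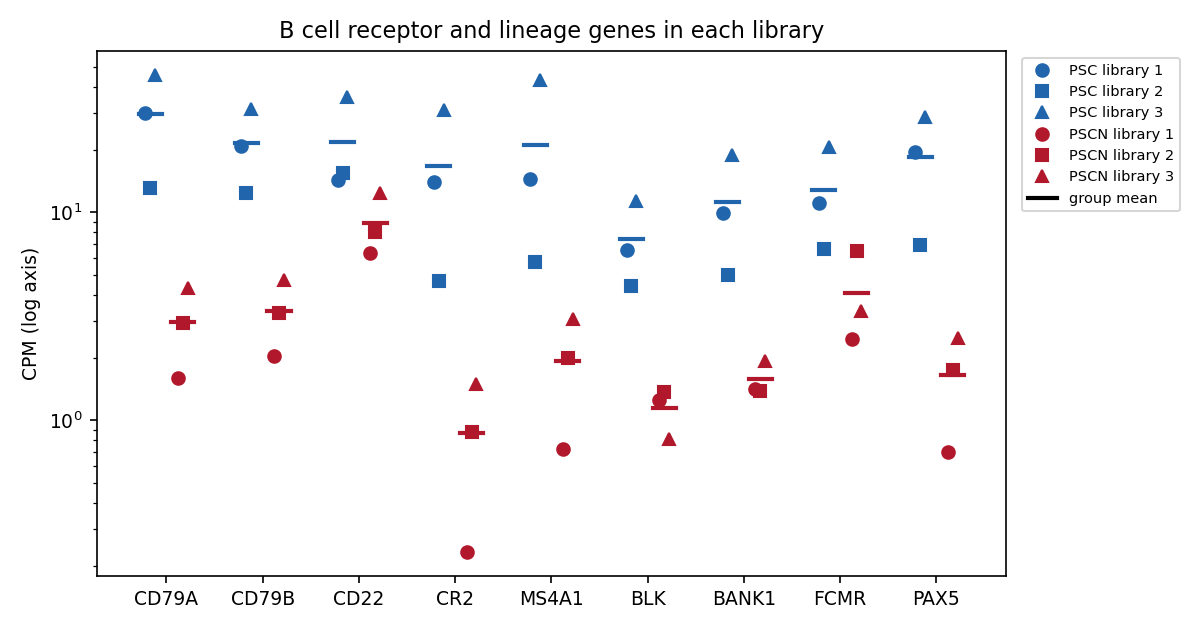
The plot gives each library's level in CPM on a log axis for the 9 genes, PSC in blue and PSCN in red, with a bar at each group's mean (n = 3). PSC library 3 is the highest point for all 9 genes, and the gap between the groups is narrowest for FCMR (6.63 against 6.54 CPM) and CD22.

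CD79A and CD79B, the signalling subunits of the receptor, were far apart between the groups. CD79A (ENSMUSG00000003379.7, chromosome 7, 24897381 to 24902197 in GRCm38) had 30.0, 13.0 and 45.9 CPM across PSC libraries 1 to 3, against 1.60, 2.92 and 4.34 CPM across PSCN libraries 1 to 3. The lowest PSC library was still 3.0 times the highest PSCN library. The PSC mean was 29.6 ± 16.4 CPM and the PSCN mean 2.95 ± 1.37 CPM (SD over 3 libraries), giving a log2 fold change of -3.33 (SE 0.60, edgeR adjusted p = 0.167). CD79B, its partner (chromosome 11, 106311341 to 106314762), stood at 20.8, 12.3 and 31.4 CPM in PSC and at 2.04, 3.29 and 4.70 CPM in PSCN. It followed the same order of libraries as CD79A, and its log2 fold change was -2.68 (SE 0.48, edgeR adjusted p = 0.166). Per kilobase of annotated exon, the ratio of CD79A to CD79B was 1.42, 1.04 and 1.44 in PSC and 0.77, 0.87 and 0.91 in PSCN. The groups did not overlap in this ratio, with a two-sided exact permutation p of 0.1, the smallest that 3 against 3 libraries allow (0.15 adjusted over 9 ratios computed).

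Among the receptors that tune the response, CR2 had the largest difference of the 9 and CD22 the smallest. CR2, the complement receptor CD21 of mature B cells that is also made by follicular dendritic cells (chromosome 1, 195136811 to 195176716), stood at 14.0, 4.67 and 31.2 CPM in PSC. In PSCN it stood at 0.23, 0.88 and 1.49 CPM, the lowest value resting on 16 counts. Its log2 fold change was -4.25 (SE 0.98, edgeR adjusted p = 0.180), and it varied 6.67-fold within PSC. CD22, a sialic acid binding inhibitory receptor (chromosome 7, 30865402 to 30880342), stood at 14.2, 15.4 and 35.7 CPM in PSC and at 6.40, 8.0 and 12.3 CPM in PSCN. Its groups were only 1.15-fold apart at their closest, and its log2 fold change was -1.29 (SE 0.46, edgeR adjusted p = 0.202). That value was -0.72 without PSC library 3 and -0.67 with sex as a covariate. Relative to CD79A and per kilobase, CD22 stood at 0.14, 0.34 and 0.22 in PSC and at 1.15, 0.79 and 0.82 in PSCN. The ratio was higher in every PSCN library than in any PSC library (exact permutation p = 0.1, 0.15 adjusted over the 9 ratios). CR2 relative to CD79A went the other way, with means of 0.0900 ± 0.0293 in PSC and 0.0474 ± 0.0188 in PSCN (SD, n = 3 each, exact permutation p = 0.1).

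FCMR, the Fc receptor for IgM (chromosome 1, 130865669 to 130880791), stood at 11.1, 6.63 and 20.7 CPM in PSC and at 2.46, 6.54 and 3.33 CPM in PSCN. PSCN library 2 nearly reached PSC library 2, and the log2 fold change was -1.64 (SE 0.56, edgeR adjusted p = 0.198). Without PSC library 3 it was -1.09. MS4A1, which encodes the B cell surface protein CD20 (chromosome 19, 11249675 to 11266241), stood at 14.5, 5.75 and 43.1 CPM in PSC and at 0.73, 1.99 and 3.06 CPM in PSCN. It was the most uneven member within PSC, with a 7.50-fold span, and its log2 fold change was -3.45 (SE 0.91, edgeR adjusted p = 0.187). Without PSC library 3 it was -2.38.

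The cytoplasmic signalling members had the smallest spread in PSCN, with SDs of 0.292 CPM for BLK and 0.307 CPM for BANK1. BLK, the SRC-family kinase of B cells that is also found in plasmacytoid dendritic cells and some gamma delta T cells (chromosome 14, 63372836 to 63417037), stood at 6.61, 4.43 and 11.3 CPM in PSC and at 1.25, 1.36 and 0.81 CPM in PSCN. Its log2 fold change was -2.71 (SE 0.46, edgeR adjusted p = 0.150), the smallest p of the 9. BANK1, a scaffold that binds SRC-family kinases and the IP3 receptor (chromosome 3, 136053363 to 136326066), stood at 9.91, 4.99 and 18.8 CPM in PSC and at 1.41, 1.38 and 1.93 CPM in PSCN. Its log2 fold change was -2.84 (SE 0.54, edgeR adjusted p = 0.171). Neither gene had a PSCN library above 2 CPM.

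PAX5, the transcription factor that commits progenitors to the B lineage and holds them there (chromosome 4, 44524757 to 44710487), stood at 19.6, 6.97 and 28.7 CPM in PSC and at 0.70, 1.75 and 2.5 CPM in PSCN. Its log2 fold change was -3.48 (SE 0.71, edgeR adjusted p = 0.173), close to those of CD79A and MS4A1. PAX5 and CD22 share some exon bases with genes on the opposite strand, and the strand setting of the authors' counting is not known. Those opposite-strand genes held at most 29 counts in any library, against at least 48 for PAX5 and 439 for CD22.

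The promoters of 3 members are shown because they differ in which short motifs of B lineage factors they hold. RefSeq (GRCm38.p6) gave a start site for 6 of the 9 genes. The 250 bases before that start are printed 5′ to 3′ on the gene's strand, with motif matches in capitals.
CD79A, chr7:24897247-24897496, + strand: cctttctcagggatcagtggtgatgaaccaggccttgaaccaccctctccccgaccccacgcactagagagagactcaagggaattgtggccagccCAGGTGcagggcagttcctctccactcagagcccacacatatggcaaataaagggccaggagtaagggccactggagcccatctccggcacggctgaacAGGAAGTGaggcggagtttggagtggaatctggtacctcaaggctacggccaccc
CD22, chr7:30879029-30879278, - strand: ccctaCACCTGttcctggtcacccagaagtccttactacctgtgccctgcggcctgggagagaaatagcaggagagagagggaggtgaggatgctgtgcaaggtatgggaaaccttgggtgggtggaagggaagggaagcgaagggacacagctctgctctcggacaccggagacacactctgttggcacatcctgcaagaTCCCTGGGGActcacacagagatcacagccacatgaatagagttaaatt
CR2, chr1:195176720-195176969, - strand: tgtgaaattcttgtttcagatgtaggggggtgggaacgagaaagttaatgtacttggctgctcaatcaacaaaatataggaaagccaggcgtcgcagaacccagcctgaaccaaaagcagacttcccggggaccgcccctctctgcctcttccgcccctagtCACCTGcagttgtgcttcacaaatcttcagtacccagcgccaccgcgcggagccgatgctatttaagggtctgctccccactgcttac

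Both strands were searched for 5 motifs, chosen with these results known. The E-box CAGGTG, which reads CACCTG on the other strand and is bound by E proteins such as TCF3, was in 4 of the 6 member promoters (BANK1, CD22, CD79A and CR2) and in 17.2% of all 32851 promoters of the same length. The EBF1 palindrome, TCCC and GGGA spaced by 2 bases of any kind, was in CD22 alone, 49 bases before its start, and in 0.779% of all promoters. The ETS motif AGGAAGTG was in CD79A alone, 55 bases before its start, and in 3.14% of all. The octamer ATTTGCAT and the PU.1 motif GAGGAAGT, which overlaps the ETS motif in 7 bases, were in 0 of the 6, and in 1.60% and 2.44% of all promoters. The CD22 window lies inside the gene as GENCODE M21 annotates it, since RefSeq places the start further in. The same holds for the end of the CD79A window, which includes its ETS match. A match is a description of letters and not a bound site.

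The order of levels among members can be compared per kilobase of exon. In PSC it ran CD79A (20.3 ± 11.3 CPM per kilobase), CD79B (15.02 ± 6.69), FCMR (7.38 ± 4.14), CD22 (4.32 ± 2.39), MS4A1 (3.42 ± 3.16), BLK (2.76 ± 1.30), PAX5 (2.08 ± 1.23), CR2 (2.05 ± 1.66) and BANK1 (1.5 ± 0.935), as means ± SD of 3 libraries. Every gap between neighbours was smaller than the larger SD of the pair except that between CD79B and FCMR. In PSCN the order began with FCMR (2.37 ± 1.24 CPM per kilobase), CD79B (2.34 ± 0.930), CD79A (2.03 ± 0.939) and CD22 (1.77 ± 0.610). A gap larger than either SD then separated CD22 from BLK (0.423 ± 0.108), and MS4A1, BANK1, PAX5 and CR2 followed between 0.311 and 0.107 CPM per kilobase. FCMR and CD22 thus stood beside the CD79 subunits in PSCN and below them in PSC.

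Within PSC the 9 genes shared an order of libraries that the rule did not use. PSC library 3 was the highest of all 6 libraries for 9 of 9 members, and PSC library 2 was the lowest of PSC for 8. Of the genes tested, 2835 (13.4%) separated the groups in this direction, and 536 (2.53%) did so and also peaked within PSC in library 3. The share of genes lowest within PSC in library 2 was not counted. PSC library 3 is also the library whose transcriptome lay nearest to PSCN, while its member levels were the farthest from those of PSCN. With it as the only PSC library, an alternative added after seeing the data, the log2 fold changes of the 9 ran from -5.18 (CR2) to -2.02 (CD22). Without it they ran from -3.40 (CR2) to -0.72 (CD22), and edgeR then called 4 of the 9 lower (BLK, BANK1, CD79A and CD79B, adjusted p = 0.0432 to 0.0482), against 5.4% of all genes. PSC library 1, the male PSC library, lay above all 3 male PSCN libraries for each member, which the lack of overlap between the groups already implies. With sex as a covariate the log2 fold changes ran from -4.0 (CR2) to -0.67 (CD22). The female samples were all PSC, so no contrast within females could be made. In PSCN, library 1 was the lowest for 7 of the 9 genes and library 3 the highest for 7.

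**Figure D2:**
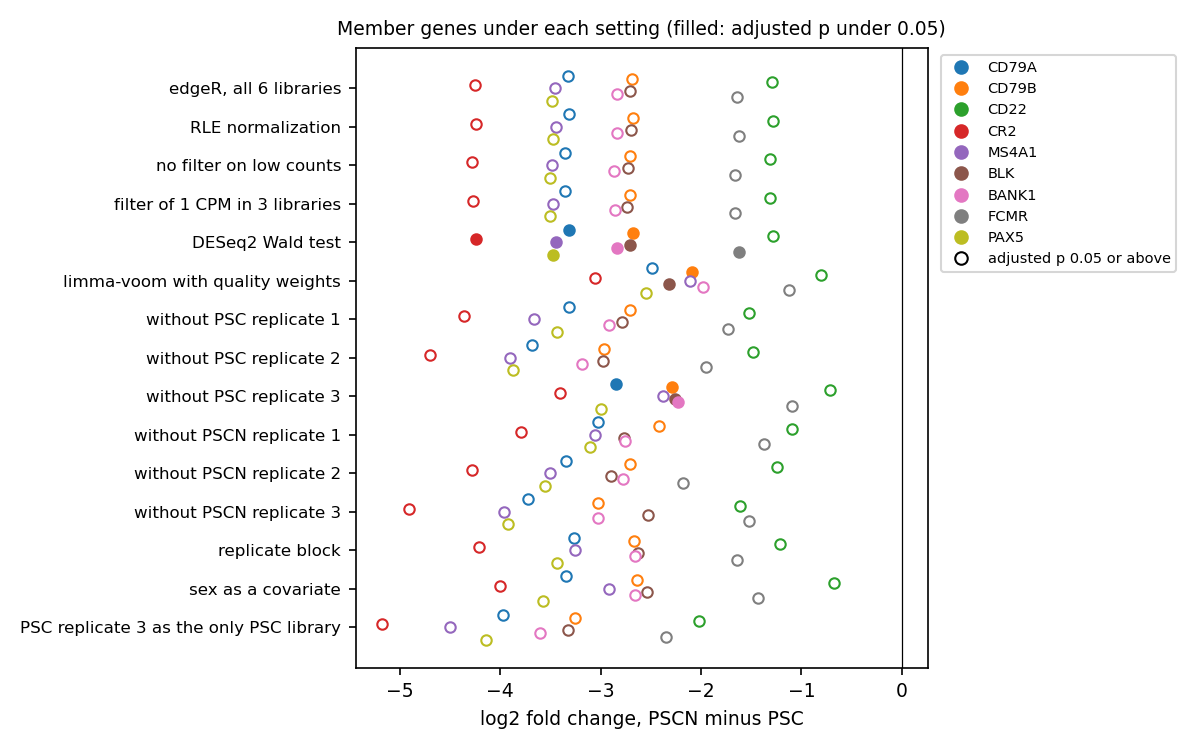
Each point is the log2 fold change of 1 member under 1 analysis setting, filled where the adjusted p was under 0.05. All 9 genes stay below 0 in the main edgeR fit and under each of the 14 alternatives, while which of them pass differs by tool and by whether PSC library 3 is included.

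The authors' deposited table of their own DESeq2 comparison gives the 9 genes log2 fold changes from -4.24 (CR2) to -1.28 (CD22). Of the 9, 7 have in the authors' deposited table an adjusted p under 0.05, where 8.1% of all genes with an adjusted p are called lower. CD22 (adjusted p = 0.0742 in the authors' deposited table) and FCMR (0.0515) are the exceptions.

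Other genes of the receptor pathway were spread more widely than the 9. Of 25 listed genes of B cell receptor signalling tested, 0 passed with edgeR and 18 had negative log2 fold changes. The median of the 25 was -0.23, against -0.01 over all genes tested. That median was 0.003 with limma-voom, 0.18 without PSC library 3 and 0.32 with sex as a covariate. The share negative over all genes tested, for this and the other lists, was 50.9%. The groups separated as lower for 4 of the 25, against 13.4% of all genes tested, and as higher for 1. PRKCB, a protein kinase C that acts downstream of the receptor, had -1.03 (SE 0.28) and was lower in every PSCN library than in any PSC library. The kinases BTK, LYN and SYK and the adaptor BLNK, which cells other than B cells also make, overlapped between the groups: BTK had -0.76 (SE 0.31), LYN -0.13 (SE 0.29), SYK -0.07 (SE 0.30) and BLNK 0.47 (SE 0.36). The sign of LYN and SYK turned under 4 alternatives and that of BLNK under 1.

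Of 18 transcription factors of the B lineage tested, 0 passed with edgeR and 13 were negative, with a median of -0.83. The groups separated as lower for 8, against 13.4% of all genes tested, and as higher for 1. POU2AF1, the octamer coactivator of B cells, stood at 28.8, 11.9 and 29.6 CPM in PSC and at 3.16, 5.04 and 6.28 CPM in PSCN (log2 fold change -2.28, SE 0.45). SPIB, an ETS factor of B cells and plasmacytoid dendritic cells, had -2.32 (SE 0.72), and IKZF3 (Aiolos) had -2.14 (SE 0.64). IRF4, a factor of activated B cells and plasma cells, had -1.82 (SE 0.49). EBF1, which acts with PAX5 in B cells and is also made by stromal cells, did not follow the members: it stood at 22.8, 10.4 and 15.7 CPM in PSC and at 18.0, 3.60 and 5.32 CPM in PSCN. PSCN library 1, with the highest EBF1 of its group, was also the library with 41485 CPM summed over 8 fibroblast genes, against 1145 to 4029 CPM in the other 5, and the part of fibroblasts in its EBF1 level was not tested.

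The list of other B cell surface genes was negative throughout, with 17 of 17 tested below 0 and a median of -1.52. Of them, 11 separated the groups as lower, against 13.4% of all genes tested, though 0 passed with edgeR. CXCR5, the receptor that guides B cells into follicles, stood at 6.80, 4.62 and 17.1 CPM in PSC and at 1.33, 1.73 and 0.78 CPM in PSCN (log2 fold change -2.89, SE 0.62). FCRLA, a protein of the Fc receptor-like family, had -2.31 (SE 0.50). FCER2, listed under the human form of the symbol and known as the low-affinity IgE receptor CD23, had -2.06 (SE 0.54). Genes of early B cell stages were near the limit of counting: VPREB1, IGLL1, RAG1 and RAG2 had at most 17 counts in any library, and DNTT had 0, 10 and 71 in PSC and 3, 0 and 9 in PSCN. These 5 of the 6 genes of that list found in the table did not enter the test. VPREB3 did, at 27.0, 14.9 and 2.06 CPM in PSC and 0.46 to 2.15 CPM in PSCN. Unlike all 9 members it was lowest in PSC library 3 of its group, where it overlapped PSCN.

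**Figure D3:**
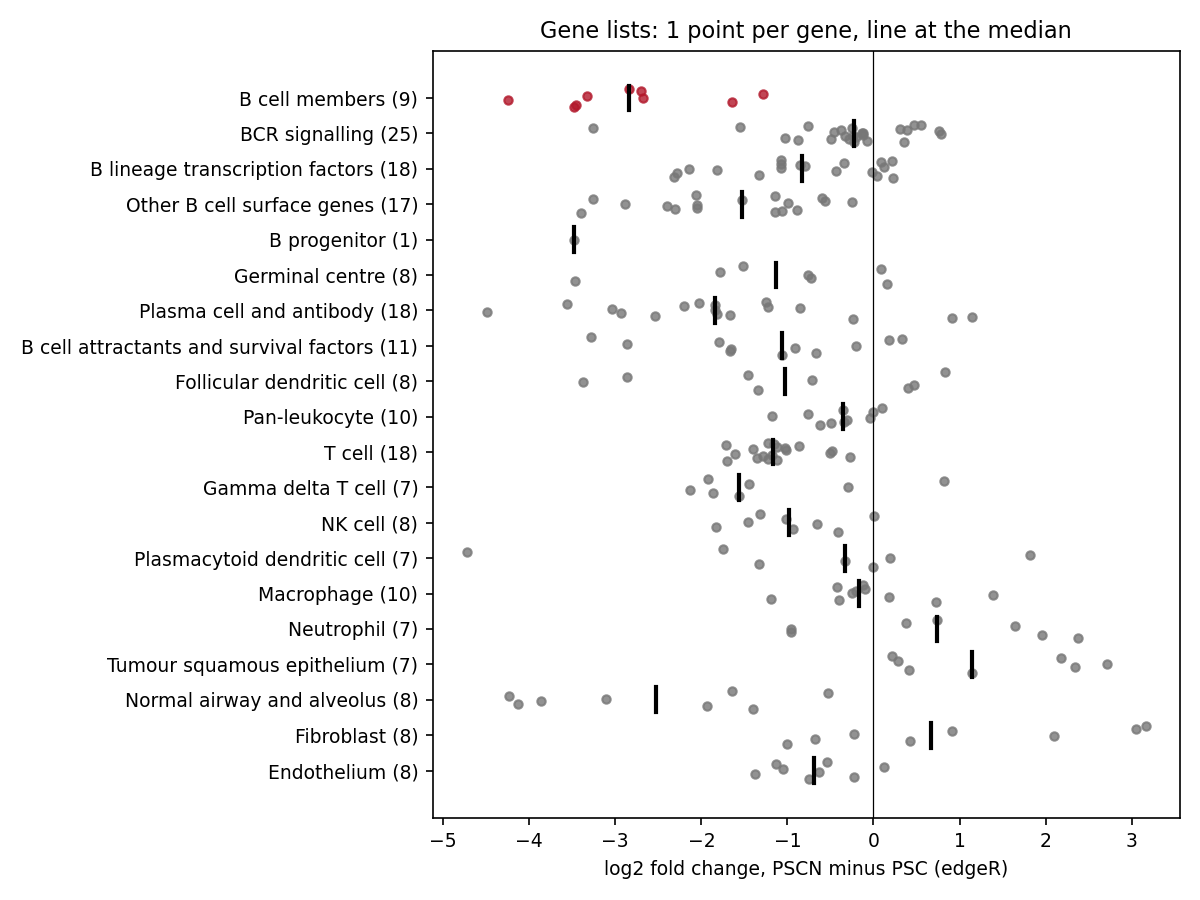
Each point is the edgeR log2 fold change of 1 gene, PSCN minus PSC, arranged by gene list with the number of tested genes in brackets and a line at the median. The 9 member genes (red) have a median of -2.84, below the T cell median of -1.17 and the pan-leukocyte median of -0.35. RGS13 and TNFRSF17, with 0 counts in PSCN, are counted in the medians but not drawn.

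The germinal centre list, of genes that mark B cells under selection, was mixed in level and direction. RGS13 had 32, 51 and 19 counts in PSC and 0 in each PSCN library, at least 10.3-fold lower against a floor of 3 counts per library. GCSAM stood at 2.15, 1.62 and 2.41 CPM in PSC and at 0.74, 0.34 and 0.71 CPM in PSCN (log2 fold change -1.78, SE 0.42). Of the 8 genes in the list 6 were negative, with a median of -1.14, and 0 passed with edgeR. The 2 positive genes, BCL6 (0.08, SE 0.11) and S1PR2 (0.16, SE 0.18), named after their values were seen, are made by other cells too and stood at 28.5 to 54.7 CPM, above the rest of the list.

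Immunoglobulin heavy chains are part of the membrane immunoglobulin of the receptor, and IGHM and IGHD are annotated as constant region genes. IGHM, the heavy chain of IgM, stood at 79.5, 138.7 and 231.7 CPM in PSC and at 21.6, 15.3 and 18.0 CPM in PSCN (log2 fold change -3.03, SE 0.42, edgeR adjusted p = 0.137). IGHD, a heavy chain of resting B cells, had -3.56 (SE 0.55, edgeR adjusted p = 0.138). The groups did not overlap for either gene.

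Markers of other leukocytes give a scale for the members. Summed over the 9, the members reached 140.6, 74.2 and 266.8 CPM across PSC libraries 1 to 3 and 16.8, 28.1 and 34.5 CPM in PSCN libraries 1 to 3. The 18 T cell genes tested, all with negative log2 fold changes and a median of -1.17, summed to 146.9 to 318.6 CPM in PSC and to 79.8 to 152.9 CPM in PSCN, so the groups overlapped. The 10 pan-leukocyte genes summed to 713.9 to 1284 CPM in PSC and to 641.4 to 927.1 CPM in PSCN, with a median of -0.35 that became 0.12 with sex as a covariate. Per kilobase, the ratio of CD79A to PTPRC, the leukocyte common antigen, was 4.26, 1.67 and 3.69 in PSC and 0.29, 0.64 and 0.47 in PSCN. The ratio of CD79A to CD3E, a T cell receptor subunit, was 14.5, 5.0 and 7.20 in PSC and 1.94, 2.38 and 1.43 in PSCN. Neither ratio overlapped between the groups (exact permutation p = 0.1 for each, 0.15 adjusted over the 9 ratios). CD22 (-1.29) and FCMR (-1.64) had log2 fold changes no larger in size than those of the T cell genes CD28 and ZAP70 (-1.71 each), and their ratios to CD3E were not tested.

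Levels of other cell types' genes are given beside these, with 0 genes of each list past the edgeR threshold. The 10 macrophage genes summed to 436.3 to 1227 CPM in PSC and to 521.9 to 1059 CPM in PSCN, with a median log2 fold change of -0.16. The 8 genes of normal airway and alveolus summed to 28865 and 21749 CPM in PSC libraries 1 and 2, to 1729 CPM in PSC library 3 and to between 2323 and 3279 CPM in PSCN. PSC library 3 therefore combined the lowest sum of this mixed list with the highest member level. Its genes differed: SFTPC stood at 301.3 CPM in PSC library 3 against 1113 to 1459 CPM in PSCN. SCGB3A1, an airway gene, stood at 324.2 CPM there against 5.64 to 40.9 CPM in PSCN. Among cells that can also make BLK, 5 of the 7 plasmacytoid dendritic cell genes tested had negative log2 fold changes, with a median of -0.33. Their sum was 230.4 to 842.6 CPM in PSC and 854.2 to 1439 CPM in PSCN, but without LY6D, the most abundant of them and named after its values were seen, it was 205.2 to 231.8 CPM in PSC and 158.2 to 214.6 CPM in PSCN. The 7 gamma delta T cell genes summed to 198.4 to 249.8 CPM in PSC and to 213.0 to 259.8 CPM in PSCN. The part of these cell types in the members' levels was not tested.

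**Figure D4:**
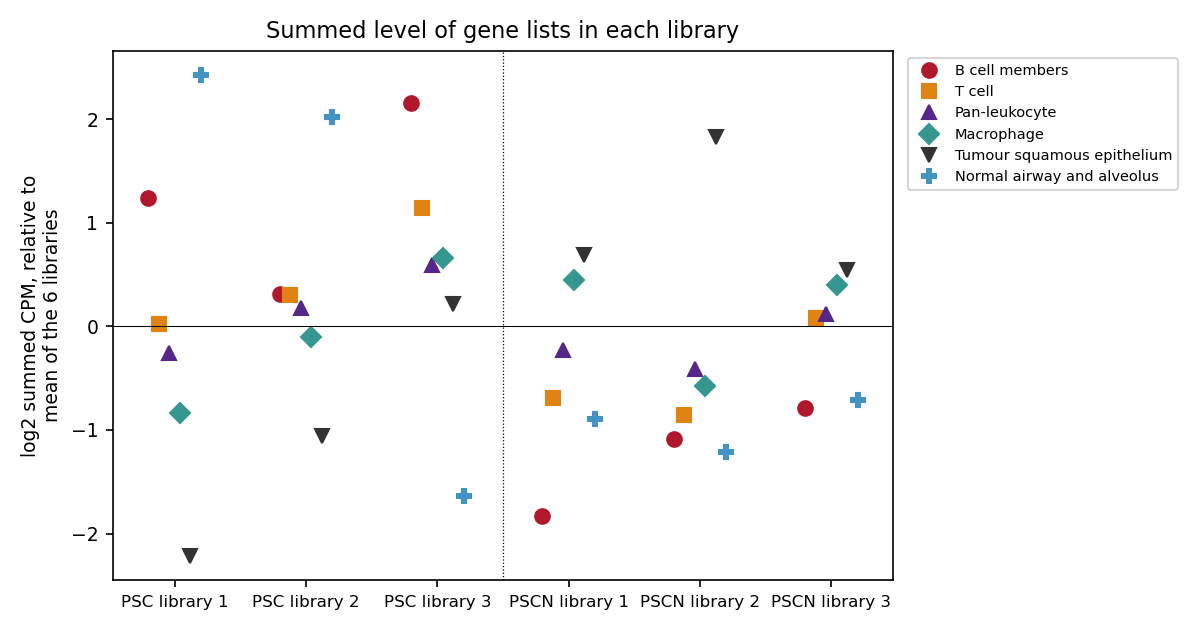
Points give the summed CPM of 6 gene lists in each library on a log2 scale, relative to that list's mean over the 6 libraries. The B cell members lie above 0 in each PSC library and below 0 in each PSCN library, while the airway and alveolus list drops already in PSC library 3.

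The genes with the pattern most like the members were found by the root-mean-square difference between centred log2 CPM profiles over the 6 libraries, among 14627 genes. Among the 8 nearest were RSPO1 (0.24), FCRL1 (0.31), FCRLA (0.33), BTNL2 (0.35), POU2AF1 (0.38), TNFRSF13C (0.43) and IKZF3 (0.44), in log2 units. Of the 8, 6 are in the gene lists used here. RSPO1, a secreted enhancer of Wnt signalling, stood at 2.66, 1.15 and 3.56 CPM in PSC and at 0.26, 0.40 and 0.41 CPM in PSCN. BTNL2, a butyrophilin-like membrane protein, stood at 1.22, 1.06 and 3.35 CPM in PSC and at 0.12, 0.29 and 0.53 CPM in PSCN. Among the 9 members themselves the same measure, taken from their own mean, ran from 0.18 (CD79B) to 0.84 (CD22) and 0.86 (CR2).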

How the data were processed

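Total RNA of 6 biopsies was sequenced, 3 PSC and 3 PSCN. The authors deposited estimated counts per gene symbol, whole numbers not scaled between libraries, made with GRCm38 and with HISAT2, StringTie, Trimmomatic and DESeq2 among the tools listed, per the submitters' processing notes. Versions, gene annotation and strand setting are not given in the sources used here. Columns were matched to samples by group letter and replicate number. The authors also deposited a DESeq2 table with, per the file headers, a mean normalised signal, log2 fold changes with errors, a test score, and p-values with their adjusted values.

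Counts were filtered with filterByExpr (21201 genes), scaled by TMM and tested with edgeR 4.0.16 (quasi-likelihood F test, 2 groups, R 4.3.3). Benjamini-Hochberg adjustment was made over all genes tested, with a threshold of 0.05. CPM values are TMM-scaled, and levels per kilobase use GENCODE M21 exon lengths. Ratios were compared by two-sided exact permutation tests. DESeq2 1.42.0, limma 3.58.1 voom with quality weights, other filters and normalisation, each library left out, a replicate block and a sex covariate were alternatives. The scripts were tested on simulated data, where DESeq2 made a larger share of false calls than edgeR or limma-voom. That simulation drew each gene independently, so no library stood apart in it as PSC library 3 did here. Its false calls therefore do not give the share of false calls in these data. Libraries held about the same depth, 69563622 to 72807077 counts, and counting error alone is small beside the spread between libraries.

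The member genes, gene lists and motifs were chosen with earlier results of these data known. Named genes are the 9 members, up to 3 genes of smallest p in each list, a fixed set of lineage and signalling genes, and the 8 most alike profiles (mean of at least 1 CPM). Some genes that this rule names are not reported here.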

Additional observations from a re-analysis of the deposited data

How the results depend on the processing

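The 9 member log2 fold changes were negative in the edgeR fit and in all 14 alternatives, with a median of -2.84 that ran from -3.19 to -2.29 when 1 library was left out. Of 126 member values under alternatives, 112 stayed on the same side of the threshold and 14 newly passed it. The number of members called lower was 0 with edgeR, 8 with DESeq2, 2 with limma-voom and 0 to 4 with 1 library left out, the 4 arising without PSC library 3. Genes of the other lists called lower numbered 0 of 198 with edgeR, 51 of 191 with DESeq2 (8.89% of all genes), 24 of 198 with limma-voom (5.84%) and 0 to 17 with 1 library left out, the 17 of 198 without PSC library 3 (5.4%). Those called higher numbered 0, 1 (5.42% of all genes), 5 (8.43%) and 0 to 3 (3.39%). The cause was not tested.

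The sign turned for 3 named genes that are not members. SYK had log2 fold changes of 0.23 with limma-voom, 0.32 without PSC library 3, 0.04 without PSCN library 1 and 0.38 with sex as a covariate. LYN had 0.0598, 0.15, 0.0054 and 0.32 under the same settings. With 1 library left out, SYK ran from -0.25 to 0.32 and LYN from -0.39 to 0.15. BLNK had -0.20 when PSC library 3 alone stood for PSC, a setting added after seeing the data in which that lone library is assumed to vary like the PSCN group.

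Deviations of same-numbered libraries from their group means correlated at 0.186, -0.053 and 0.016. With 3 libraries a group, these values cannot settle whether the numbers pair the samples. With the replicate block the member median was -2.66 and 0 members were called. Not every library correlated best with its own number.

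With 3 libraries a group, exact tests of single ratios cannot go below 0.1. The lowest member count, 16 for CR2 in PSCN library 1, limits the precision of that fold change.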

Other observations

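Genes that draw B cells into follicles or keep them alive were mostly lower in PSCN as well, although 0 of 11 passed with edgeR (9 negative, median log2 fold change -1.06). LTB, a membrane cytokine that B cells use to organise lymphoid tissue, stood at 18.8, 17.5 and 45.6 CPM in PSC and at 4.04, 8.84 and 12.9 CPM in PSCN (-1.67, SE 0.57). TNFSF13B, the B cell survival factor BAFF, had -1.06 (SE 0.35), and both separated the groups. CXCL13, the ligand of CXCR5, stood at 12.1, 4.43 and 63.1 CPM in PSC and at 3.43, 2.18 and 5.33 CPM in PSCN. Its groups overlapped, and its PSC mean rests on PSC library 3, the library with the highest member levels. CXCL12 ran the other way within PSC, at 283.3, 151.2 and 52.5 CPM, lowest in PSC library 3.

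Follicular dendritic cell genes were mixed, with 5 of 8 negative (50.9% over all genes tested), a median of -1.03 and 0 passing with edgeR. C4B, a complement component, had -1.46 (SE 0.29) and the adhesion molecule VCAM1 -1.34 (SE 0.31). These were the 2 genes of the list that separated the groups as lower, against 13.4% of all genes tested. BST1 (0.83, SE 0.55), MFGE8 (0.47, SE 0.19) and PRNP (0.40, SE 0.27), named after their values were seen, were positive. Their groups overlapped. The list of plasma cell and antibody genes, which also holds IGHM and IGHD, had 16 of 18 negative, a median of -1.84 and 0 passing with edgeR. The other 2, SDC1 (0.91, SE 0.33) and PRDM1 (1.14, SE 0.49), named after their values were seen and also made by epithelial cells, were higher in every PSCN library than in any PSC library. IGKC, the kappa light chain, stood at 2137, 785 and 662 CPM in PSC and at 216, 368 and 419 CPM in PSCN, highest in PSC library 1 where the members peaked in library 3. JCHAIN, which joins secreted IgM and IgA, had -1.67 (SE 0.48), and TNFRSF17, a survival receptor of plasma cells, had 34, 35 and 17 counts in PSC and 0 in PSCN, at least 8.73-fold lower against a floor of 3 counts per library.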
